A study of Mus musculus with 6 samples.

Results

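Polycomb group proteins keep developmental genes silent through a pair of chromatin complexes. Polycomb repressive complex 2 (PRC2) methylates lysine 27 of histone H3. Polycomb repressive complex 1 (PRC1) places ubiquitin on histone H2A and compacts chromatin. Both are known to be needed in the early mouse embryo, where they hold lineage and body-plan genes in check.

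The 10 genes described here are subunits of these complexes, taken from the deposited table by the Ensembl identifiers of their symbols, and all 10 were found among its 55774 entries. *Ezh2* and *Ezh1* encode the alternative methyltransferases of PRC2, *Eed* and *Suz12* its core scaffold, and *Jarid2* and *Mtf2* accessory subunits that help to direct it to chromatin. *Rnf2* and *Ring1* encode the alternative E3 ubiquitin ligases of PRC1, and *Bmi1* and *Pcgf6* encode PCGF subunits, which pair with the ligase and define the form of the complex. Of the 10, 9 had at least 1 FPKM (fragments per kilobase of transcript, scaled to the number of fragments sequenced) in at least 3 libraries and were tested, as were 11924 genes in all. *Ring1* did not reach this level.

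The samples were wild-type mouse blastocysts grown from two-cell embryos of ICR females in CZB medium to which extracellular vesicles from human Fallopian tubes had been added. Vesicles came from women with endometriosis (oEV-EMT) or from women without it (oEV-ctrl), whom the sample labels describe as having uterine fibroids and the paper as having another gynaecological condition. Each group held 3 libraries, and each library pooled 10 blastocysts and so averages over trophectoderm, epiblast and primitive endoderm. No library without vesicles was analysed here. Nothing in the labels ties the 3 libraries of a group to separate cultures or vesicle donors, and p-values measure only the spread between these libraries.

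All 10 trophectoderm, 10 epiblast and inner cell mass and 10 primitive endoderm markers reached 1 FPKM in at least 3 libraries. Summed FPKM overlapped between the groups for these lists, at 4600 to 6390 against 5201 to 6000, 214 to 413 against 168 to 279, and 149 to 290 against 195 to 257. Of 10 cumulus and granulosa cell markers 9 stayed under 1 FPKM in every library, the exception being *Cyp11a1*, and of 7 oviduct epithelium markers 6 did, the exception being *Epcam*, which blastocysts also express. Among 5 blood cell markers 3 were under 1 FPKM throughout, and the list summed to 0.807 to 4.41 FPKM. The 10 oocyte markers summed to 5.08 to 7.19 FPKM in oEV-EMT and 2.66 to 3.45 in oEV-ctrl, without overlap (exact two-sided permutation test, p = 0.1), and 7 of them were under 1 FPKM in every library. The part of this difference in the values below was not tested. FPKM sums per library ran from 1293175 to 1551567. FPKM keep no read totals, so the depth behind a value is unknown and no counting interval is given.

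The *Ring1* and *Rnf2* promoters are shown because this pair of genes encodes alternative forms of the same enzyme and differed more in level than *Ezh2* and *Ezh1*, the other such pair among the members. Each line is the stretch of 250 bases before the RefSeq start on GRCm38.p6, read 5′ to 3′ on the strand of the gene, with CG dinucleotides in capitals.
Rnf2, chr1:151500992-151501241, minus strand: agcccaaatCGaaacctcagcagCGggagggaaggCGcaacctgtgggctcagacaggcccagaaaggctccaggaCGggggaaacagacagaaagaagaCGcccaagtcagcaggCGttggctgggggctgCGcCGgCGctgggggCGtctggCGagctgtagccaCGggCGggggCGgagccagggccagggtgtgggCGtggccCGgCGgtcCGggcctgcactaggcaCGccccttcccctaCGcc
Ring1, chr17:34024681-34024930, minus strand: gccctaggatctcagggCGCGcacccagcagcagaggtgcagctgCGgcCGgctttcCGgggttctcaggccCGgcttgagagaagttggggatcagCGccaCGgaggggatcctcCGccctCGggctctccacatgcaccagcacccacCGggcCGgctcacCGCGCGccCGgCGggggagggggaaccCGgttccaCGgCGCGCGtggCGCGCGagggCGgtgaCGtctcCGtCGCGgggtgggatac
The *Rnf2* window holds 20 CG dinucleotides and the *Ring1* window 30, against a median of 6 over 32851 promoter windows of the same length. At least as many as in *Rnf2* were present in 17.9% of these windows, and at least as many as in *Ring1* in 5.94%. Both promoters were thus rich in CG, and the gene with the lower mRNA level had more. All 10 members had a window in the table, and *Suz12* had the most CG dinucleotides of them, 37, a number reached in 2.2% of all windows.

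FPKM are scaled by transcript length, so levels were set side by side between genes. The order depends on the transcript length used for each gene, and no values per transcript were used. The levels of the members spanned from *Eed* at 195 ± 26.2 FPKM (SD, n = 6 libraries) to *Ring1* at 0.413 ± 0.242. *Eed* and *Mtf2*, at 174 ± 22.6 FPKM, led the order, and *Eed* was the higher in 4 of 6 libraries, so that these neighbours were not separated. *Mtf2* lay above the next gene, *Rnf2*, in 6 of 6 libraries without overlap of their ranges, by 3.98 times on the means. *Rnf2* at 43.7 ± 8.46 FPKM, *Suz12* at 39.3 ± 23.6, *Jarid2* at 25.5 ± 14.6 and *Ezh2* at 22.0 ± 1.95 followed, and the range of each overlapped that of the next. *Ezh2* was above *Bmi1* (8.54 ± 1.74 FPKM) in 6 of 6 libraries, and *Bmi1* above *Pcgf6* (5.75 ± 2.36) in 5 of 6. *Pcgf6* was above *Ezh1* (2.62 ± 0.619), and *Ezh1* above *Ring1*, in 6 of 6.

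**Figure D1:**
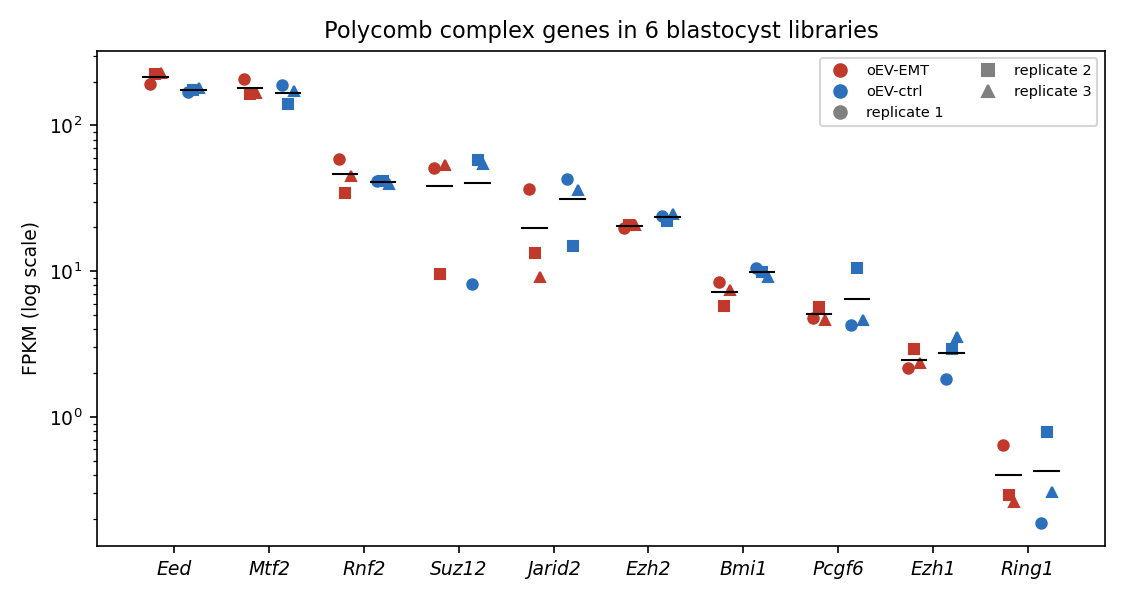
FPKM on a log axis of the 10 Polycomb genes in the 3 oEV-EMT (red) and 3 oEV-ctrl (blue) libraries, ordered by mean, with symbols for the replicates and black lines for group means. The colours interleave for most genes, and *Suz12* and *Jarid2* have libraries far apart within each group.

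*Ezh2* (ENSMUSG00000029687, minus strand of chromosome 6 of GRCm38, 47530139 to 47595341) provided most of the methyltransferase mRNA. It had 19.7, 20.8 and 20.9 FPKM in oEV-EMT and 23.9, 22.1 and 24.7 in oEV-ctrl. The highest oEV-EMT library was below the lowest oEV-ctrl library, by a narrow margin. The log2 fold change of FPKM + 1 was -0.19 (standard error 0.19, 95% interval -0.62 to 0.24, adjusted p = 0.664 from limma over all genes tested; two-sided exact permutation p = 0.1, which is the smallest possible with 3 libraries against 3). The within-group SD of *Ezh2* was 0.07 on the log2 scale, and 99.4% of the tested genes had one at least as large. The standard error of *Ezh2* is larger than this spread alone would give, as limma moderates each variance towards that of genes of similar level. *Ezh1* (ENSMUSG00000006920, chromosome 11, 101191115 to 101226463) had 2.17, 2.93 and 2.35 FPKM in oEV-EMT and 1.82, 2.93 and 3.52 in oEV-ctrl. These values overlapped fully, and the log2 fold change was -0.09 (95% interval -0.62 to 0.45, adjusted p = 0.883 from limma). *Ezh2* made up 89.2% ± 1.35 (SD, n = 3) of the summed FPKM of both in oEV-EMT and 89.6% ± 2.92 in oEV-ctrl. The log2 ratio of *Ezh2* to *Ezh1* within a library, which is free of the scaling between libraries, differed by -0.09 between the groups (exact permutation test, p = 0.9, and p = 1 after adjustment over the 5 ratios compared, as for each of them).

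Of the scaffold genes of PRC2, *Eed* was above *Ezh2* in 6 of 6 libraries and *Suz12* in 4 of 6. *Eed* (ENSMUSG00000030619, minus strand of chromosome 7, 89954654 to 89980983), which binds the methylated histone tail, had 192, 227 and 228 FPKM in oEV-EMT and 169, 174 and 182 in oEV-ctrl. Every oEV-EMT library was above every oEV-ctrl library. The log2 fold change of 0.30 (standard error 0.18, 95% interval -0.10 to 0.70) did not pass the test (adjusted p = 0.456 from limma; exact permutation test p = 0.1). After median-of-ratios or upper quartile scaling it was 0.10 or 0.03 and the groups overlapped. On the opposite strand the annotation has a processed transcript, E230029C05Rik, that shares 261 exon bases with *Eed* and was listed at 0.221 to 0.887 FPKM. The counting is not stated to use strand, so reads from overlapping exons of opposite genes cannot be told apart, here and for *Mtf2* and *Rnf2*. *Ezh2* and *Suz12* also share exon bases, 174 and 178, with opposite lincRNAs, Gm26625 and Gm26563, for which no value was used here.

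*Suz12* (ENSMUSG00000017548, plus strand of chromosome 11, 79993106 to 80034123), which holds PRC2 together, was the least even member. It had 51.4, 9.64 and 53.9 FPKM in oEV-EMT and 8.18, 58.3 and 54.2 in oEV-ctrl. In each group 1 library was low and the other 2 were high, with a ratio of 7.13 between the highest and the lowest library. Only 0.478% of the tested genes had a within-group SD as large as that of *Suz12*, 1.44 on the log2 scale. The fold change on the log2 scale was 0.01, with an error of 1.06 and a 95% interval from -2.71 to 2.73 that leaves room for a difference of several fold in either direction (adjusted p = 0.998 from limma). It became 0.79 when the low library oEV-EMT 2 was left out, and -0.87 when the low library oEV-ctrl 1 was. *Eed* exceeded *Suz12* by 23.5 times in oEV-EMT 2 and 20.6 times in oEV-ctrl 1, and by 2.98 to 4.23 times in the other 4 libraries. The annotation lists 6 *Suz12* transcripts from 488 to 4373 bases long, and 2.6% of their 50-base stretches occur in another gene. A gene value in FPKM depends on the transcript length used, and the table gives no values per transcript, so the part of either in the 2 low values was not tested.

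**Figure D2:**
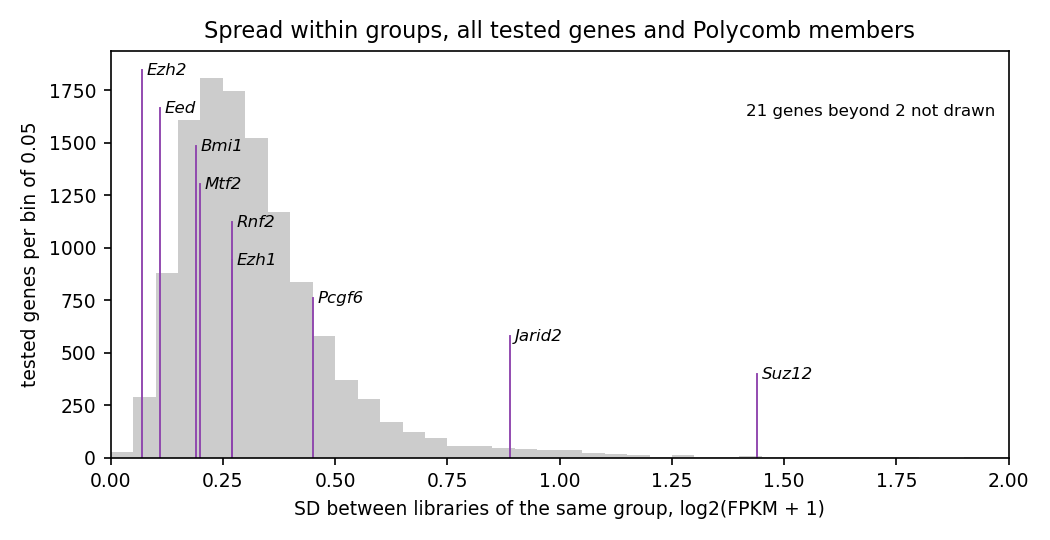
Histogram of the within-group SD of log2(FPKM + 1) over the tested genes (grey, bins of 0.05, 21 genes with an SD of at least 2 not drawn) with the 9 tested Polycomb genes as vertical lines whose heights only separate the labels. *Ezh2*, at 0.07, lies at the left edge, and *Suz12*, at 1.44, far to the right of the median of 0.29.

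The accessory subunits mark the alternative forms of PRC2. *Jarid2* (ENSMUSG00000038518, plus strand of chromosome 13, 44729474 to 44921643) had 36.9, 13.3 and 9.09 FPKM in oEV-EMT and 42.6, 14.9 and 36.3 in oEV-ctrl. It was high in 1 oEV-EMT and 2 oEV-ctrl libraries and low in the other 3. Of the libraries low for *Suz12*, oEV-EMT 2 was low for *Jarid2* as well, while oEV-ctrl 1 was the highest. The log2 fold change of -0.75 (standard error 0.58, 95% interval -2.13 to 0.63) was the lowest of the members and did not pass the test (adjusted p = 0.577 from limma; exact permutation test p = 0.3). It was -1.30 without oEV-EMT 1, -1.19 without oEV-ctrl 2, -0.47 without oEV-ctrl 1 and -0.35 without oEV-EMT 3. A within-group SD as large as that of *Jarid2* was found in 2.23% of tested genes. *Jarid2* had 16 annotated transcripts of 344 to 8353 bases and no 50-base stretch in common with another gene.
*Mtf2* (ENSMUSG00000029267, plus strand of chromosome 5, 108065674 to 108109004), a Polycomb-like protein that binds CG-rich DNA, had 208, 165 and 167 FPKM in oEV-EMT and 189, 141 and 173 in oEV-ctrl. The groups overlapped, with a log2 fold change of 0.11 (95% interval -0.34 to 0.55, adjusted p = 0.825 from limma), which was -0.09 after median-of-ratios and -0.16 after upper quartile scaling. *Tmed5*, on the opposite strand, shares 395 exon bases with *Mtf2*, and had 11.7 to 32.2 FPKM. The other Polycomb-like genes, *Phf1* and *Phf19*, were at most at 0.165 and 0.196 FPKM, and *Mtf2* made up 99.8% to 99.9% of the summed FPKM of these 3 genes in each library. The log2 ratio of *Jarid2* to *Mtf2* was -3.44 ± 0.87 (SD, n = 3) in oEV-EMT and -2.55 ± 0.60 in oEV-ctrl, a difference of -0.90 that did not pass the test (exact permutation test, p = 0.2). It was -1.37 without oEV-EMT 1 and -0.52 without oEV-EMT 3.

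In PRC1, nearly all ligase mRNA came from *Rnf2* (ENSMUSG00000026484, minus strand of chromosome 1, 151458004 to 151500955), also known as Ring1b. It had 59.3, 34.3 and 45.1 FPKM in oEV-EMT and 41.9, 41.3 and 39.9 in oEV-ctrl. The oEV-EMT libraries lay on both sides of the oEV-ctrl libraries, which were close together. The log2 fold change was 0.13 (95% interval -0.38 to 0.65, adjusted p = 0.809 from limma), and its sign turned after median-of-ratios scaling, to -0.06, and upper quartile scaling, to -0.13. *Trmt1l*, on the opposite strand, shares 158 exon bases with *Rnf2* and had 3.32 to 5.82 FPKM. *Ring1* (ENSMUSG00000024325, chromosome 17, 34020792 to 34024680) was at 0.645, 0.292 and 0.262 FPKM in oEV-EMT and 0.187, 0.785 and 0.306 in oEV-ctrl. No library reached 1 FPKM, and at this level no fold change was fitted. *Rnf2* exceeded *Ring1* by 52.7 to 224 times within a library and made up 98.1% to 99.6% of their summed FPKM. The log2 ratio differed by 0.09 between the groups (exact permutation test, p = 1). No 50-base stretch was shared between these 2 genes, nor between *Ezh1* and *Ezh2*.

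The members of the PCGF family followed another pattern, with no single gene taking most of the mRNA. *Bmi1* (ENSMUSG00000026739, plus strand of chromosome 2, 18677018 to 18686629), a PCGF subunit of canonical PRC1, had 8.46, 5.74 and 7.47 FPKM in oEV-EMT and 10.5, 9.93 and 9.10 in oEV-ctrl. No oEV-EMT library reached the lowest oEV-ctrl library. The log2 fold change of -0.41 (standard error 0.22, 95% interval -0.90 to 0.08) had the smallest p-value of the members, 0.0906 before and 0.396 after adjustment (limma; exact permutation test p = 0.1). The groups of *Bmi1* and *Ezh2* overlapped after scaling to the sum of the Ensembl entries, with log2 fold changes of -0.31 and -0.09, while upper quartile scaling gave -0.65 and -0.45 without overlap. Of the 50-base stretches of *Bmi1*, 16.7% occur in 2 pseudogenes, of which Gm5946 was listed at no more than 0.0854 FPKM and the other at 0.
*Pcgf6* (ENSMUSG00000025050, minus strand of chromosome 19, 47033617 to 47050906), which belongs to a variant PRC1 that represses germ-line genes, had 4.77, 5.72 and 4.66 FPKM in oEV-EMT and 4.31, 10.5 and 4.60 in oEV-ctrl. Library oEV-ctrl 2 stood above the other 5. The log2 fold change was -0.21 (95% interval -0.89 to 0.46, adjusted p = 0.766 from limma) and became 0.15 without that library. *Pcgf5* and *Pcgf1*, subunits of other variant complexes, had 21.7 ± 7.94 and 14.2 ± 0.746 FPKM (SD, n = 3) in oEV-EMT and 20.6 ± 3.56 and 12.8 ± 2.24 in oEV-ctrl. *Pcgf3* lay between 2.55 and 3.87 FPKM, and *Pcgf2*, the closest relative of *Bmi1*, between 0.314 and 0.713. *Pcgf5* made up 29.8% to 49.5% of the summed FPKM of the 6 PCGF genes, *Pcgf1* 19.6% to 30.4%, *Bmi1* 9.73% to 19.9% and *Pcgf6* 8.16% to 18.8%. The share of *Bmi1* was 14.4% ± 4.57 in oEV-EMT and 18.6% ± 1.14 in oEV-ctrl, ranges that overlapped. The log2 ratio of *Bmi1* to *Pcgf6* differed by -0.23 between the groups (exact permutation test, p = 0.6).

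**Figure D3:**
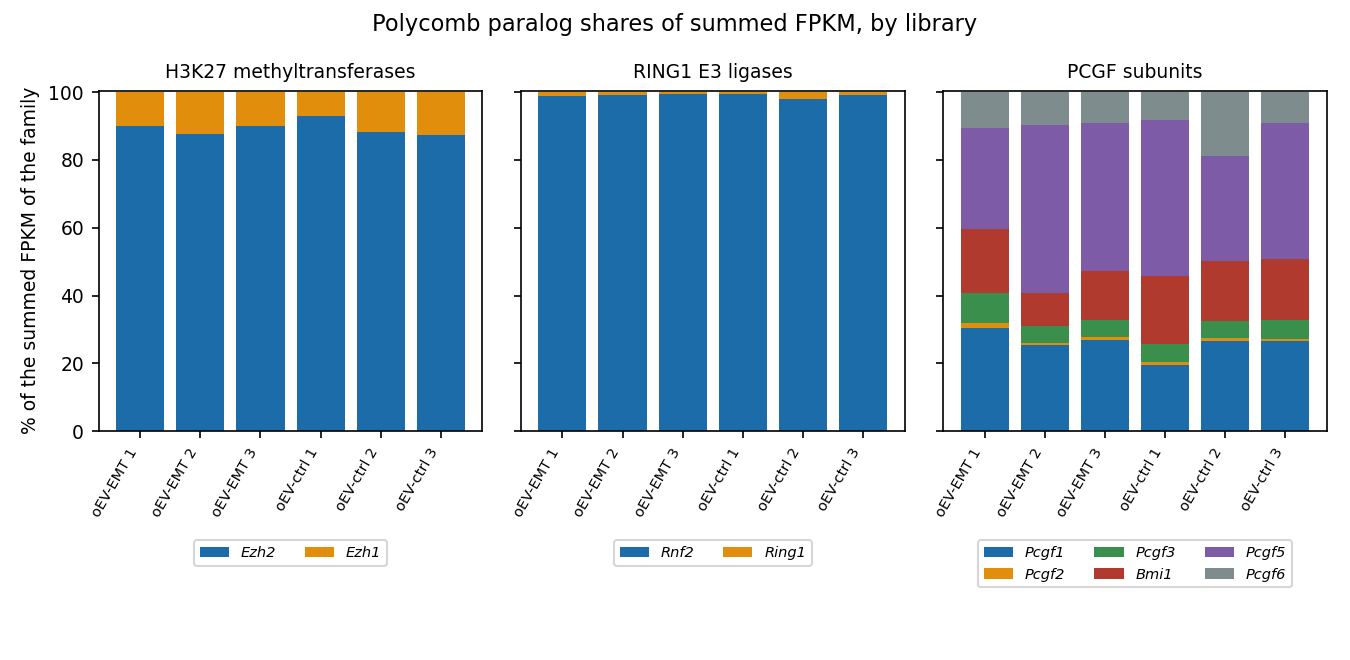
Shares in percent of the summed FPKM of 3 gene families in each of the 6 libraries, as stacked bars from 0 to 100. *Ezh2* holds 87.5% to 92.9% and *Rnf2* 98.1% to 99.6%, while *Pcgf5*, *Pcgf1*, *Bmi1* and *Pcgf6* divide the PCGF mRNA between them.

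A gene was called when its adjusted p-value was 0.05 or less and its log2 fold change 1 or more in size (limma with Benjamini-Hochberg adjustment). Of all 11924 genes tested 0, or 0%, were called, and 0 of the 9 members. Without adjustment, p-values of 0.05 or less were found for 1831 genes, or 15.4%, and for 0 of the 9 members. With oEV-EMT 1 left out they were found for 2 members, *Jarid2* (adjusted p = 0.21 from limma) and *Bmi1* (adjusted p = 0.252), and after upper quartile scaling for *Ezh2* (adjusted p = 0.358) and *Bmi1* (adjusted p = 0.279). After median-of-ratios scaling they were found for *Bmi1* (adjusted p = 0.303 from limma), and with library weights for *Eed*, higher (adjusted p = 0.213), and *Bmi1*, lower (adjusted p = 0.128). Over all genes they were found for 2124 of 11637 without oEV-EMT 1 and 1508 of 11951 after upper quartile scaling. They were found for 1539 of 11909 genes after median-of-ratios scaling and 2789 of 11924 with library weights. In the deposited values the adjusted p-values of the members lay between 0.396 and 0.998 (limma). These included wide intervals as well as narrow ones, and a p-value above the threshold does not show equal levels.
The groups did not overlap in 3 of the 9, *Eed* with oEV-EMT above, and *Ezh2* and *Bmi1* with oEV-EMT below. In the whole table the groups did not overlap in 22.4% of genes, with oEV-EMT above in 18.1% and below in 4.34%. After median-of-ratios scaling it was above in 1169 and below in 1224 of 11909 genes, and above in 0 and below in 2 of the 9 members. After upper quartile scaling it was above in 886 and below in 1510 of 11951 genes, with the same counts for the members. All tested genes had a median log2 difference of 0.17, and relative to it 8 of the 9 members were lower and *Eed* was higher, with a median of the members of -0.26. Without oEV-EMT 2 only 5 of the 9 were lower, *Suz12* being at 0.63 and *Rnf2* at 0.17 on this relative scale. Without oEV-ctrl 1 *Eed* and *Mtf2* were higher, at 0.12 and 0.05, and *Rnf2*, at -0.00 after rounding, lay at the median. *Suz12* was also higher without oEV-ctrl 2, at 0.32, and without oEV-ctrl 3, at 0.21. With no filter on low values *Mtf2* and *Rnf2* were higher as well as *Eed*, at 0.08 and 0.11. Median-of-ratios scaling brought the median of all genes to 0.01 and the genes with an unadjusted p-value of 0.05 or less from 1527 higher and 304 lower to 769 higher and 770 lower. Relative to the median of all genes, *Bmi1* was at -0.58 as deposited and at -0.60 with that scaling, *Ezh2* at -0.36 and -0.39, and *Eed* at 0.13 and 0.09. Such scaling divides each library by a constant and moves all genes nearly alike. These relative values therefore stay close by construction, and their likeness is no further evidence.

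**Figure D4:**
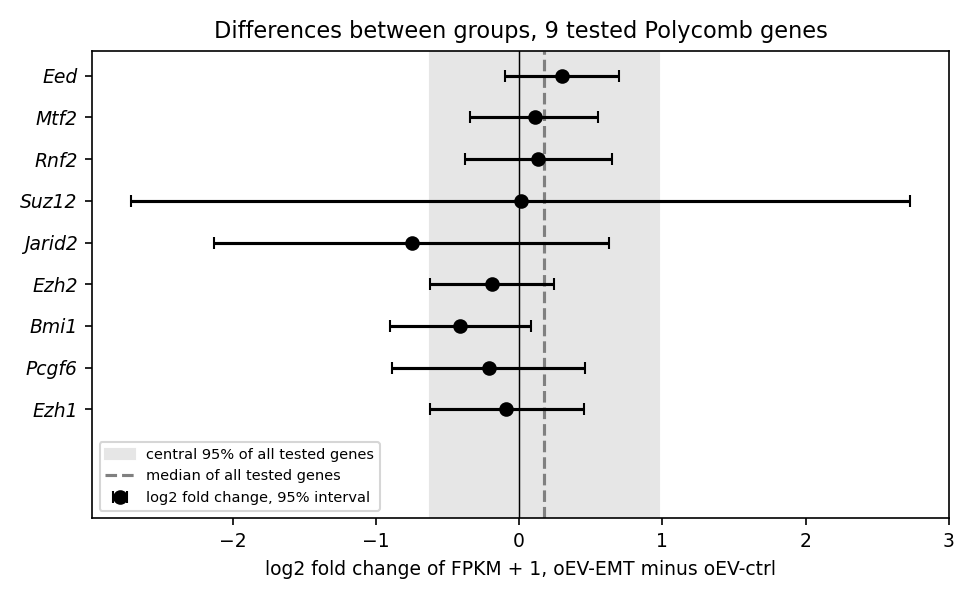
Log2 fold changes of FPKM + 1, oEV-EMT minus oEV-ctrl, of the 9 tested Polycomb genes with 95% intervals from limma, over the central 95% of all tested genes (grey, -0.62 to 0.98) and their median (dashed, 0.17). All 9 intervals include 0, and that of *Suz12* is the widest, from -2.71 to 2.73.

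The other subunits, partners and opposing enzymes were taken as a list of 57 genes, of which 46 were tested. Of these 0 were called (smallest adjusted p = 0.177, limma), while without adjustment 4 were higher and 0 lower, where 12.8% and 2.55% of all tested genes were. These counts were 2 and 2 after median-of-ratios scaling, 1 and 3 after upper quartile scaling, 2 and 5 without oEV-EMT 1, and 1 and 0 without oEV-ctrl 2. Over all genes the scalings gave 769 higher and 770 lower of 11909, and 536 and 972 of 11951. Leaving out those libraries gave 1561 and 563 of 11637, and 973 and 193 of 11765. The groups did not overlap in 6 of the 46, with oEV-EMT above in 4 and below in 2, where 18.1% and 4.34% of all tested genes were. After median-of-ratios scaling it was above in 3 and below in 4, and after upper quartile scaling above in 1 and below in 5. Over all genes these scalings gave 1169 above and 1224 below of 11909, and 886 and 1510 of 11951. Their log2 differences had a median of 0.05, which is -0.12 relative to all genes. The 4 genes were *Csnk2b*, *Hdac1*, *Tfdp1* and *Wdr5*, which serve many complexes besides Polycomb, and they are named after their values were seen. *Csnk2b*, the regulatory subunit of casein kinase 2, had 121, 89.6 and 71.9 FPKM in oEV-EMT and 49.1, 54.8 and 56.2 in oEV-ctrl, a log2 difference of 0.78 (95% interval 0.27 to 1.28, adjusted p = 0.177 from limma).
Among the histone-binding subunits of PRC2, *Rbbp7* made up 81.9% to 93.5% of the summed FPKM of *Rbbp7* and *Rbbp4*. *Rbbp7* had 243 ± 48.9 FPKM (SD, n = 3) in oEV-EMT and 199 ± 24.8 in oEV-ctrl, and *Rbbp4* had 28.5 ± 11.4 and 18.9 ± 1.38. *Epop*, a partner of PRC2 in the form that holds *Mtf2*, had 13.6 ± 5.73 FPKM against 8.45 ± 3.07, and *Aebp2*, which joins *Jarid2*, 8.90 ± 3.06 against 9.94 ± 0.336. *Ezhip*, an inhibitor of PRC2 that the annotation lists under an older symbol and that is named after its values were seen, had 6.45 ± 0.667 FPKM against 5.30 ± 0.667. None of these differences passed the test, with adjusted p-values between 0.387 and 0.752 (limma).
The chromodomain genes of canonical PRC1 described here were low. *Cbx7* led with 2.95 ± 1.59 FPKM in oEV-EMT and 3.58 ± 0.215 in oEV-ctrl (SD, n = 3), and *Cbx2* and *Cbx8* did not exceed 1.65 and 1.34 FPKM. *Cbx8* was one of the 2 genes without overlap and with oEV-EMT below, at 1.03, 0.613 and 0.738 against 1.12, 1.17 and 1.34 FPKM, with a log2 fold change of -0.31 (adjusted p = 0.469 from limma). The other was *Yy1*, chosen after its values were seen, at -0.38 (adjusted p = 0.437 from limma). *Phc1*, a polyhomeotic subunit, lay between 1.59 and 3.18 FPKM. Subunits of variant PRC1 spanned a wide range, with *Rybp* at 10.5 ± 4.61 against 12.4 ± 2.96, *Kdm2b*, which brings PRC1 to CG islands, at 9.42 ± 2.58 against 7.99 ± 1.40, and *Mga* at 9.67 ± 5.70 against 8.75 ± 2.35 FPKM. *E2f6* and *L3mbtl2*, of the same complex as *Pcgf6*, did not exceed 2.05 and 1.84 FPKM. The demethylase genes *Kdm6a* and *Kdm6b*, which oppose PRC2, had 4.22 ± 0.995 and 1.73 ± 0.993 FPKM in oEV-EMT and 4.87 ± 0.561 and 1.14 ± 0.215 in oEV-ctrl. Library oEV-EMT 1 was the highest for *Kdm6b*, at 2.88 FPKM against 1.19 and 1.13 in oEV-EMT 2 and 3. It was also the highest for *Mga*, at 16.2 against 6.84 and 5.94. The groups overlapped for *Rybp*, *Kdm2b*, *Mga*, *Kdm6a* and *Kdm6b*, with adjusted p-values between 0.613 and 0.972 (limma).

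Developmental regulators that carry Polycomb marks in pluripotent cells were taken as a list of 60 genes. In 52 of them no library reached 1 FPKM, 13 of these being listed at 0 throughout, and 7 were tested. Of the 7, 0 were called (smallest adjusted p = 0.174, limma), and 3 were higher and 0 lower without adjustment (12.8% and 2.55% over all tested genes). These counts were 1 and 0 of 7 after median-of-ratios scaling, of 6 without oEV-EMT 1, of 5 without oEV-EMT 2 and of 7 without oEV-ctrl 2. Over all genes median-of-ratios scaling gave 769 higher and 770 lower of 11909. Leaving out those libraries gave 1561 and 563 of 11637, 1087 and 264 of 11643, and 973 and 193 of 11765. The 3 genes, chosen after their values were seen, were *Gata4* and *Sox17*, which are also transcription factors of the primitive endoderm, and *Hoxd3*. *Gata4* had 11.3, 7.60 and 7.46 FPKM in oEV-EMT and 5.07, 4.19 and 4.17 in oEV-ctrl, without overlap, a log2 difference of 0.82 (95% interval 0.30 to 1.34, adjusted p = 0.174 from limma). *Sox17* had 4.91, 3.40 and 1.09 against 1.45, 0.310 and 1.32 FPKM, which overlapped (adjusted p = 0.302 from limma). *Hoxd3* stayed near the limit of the filter, at 1.63, 1.24 and 1.19 against 0.620, 0.843 and 0.765 FPKM (adjusted p = 0.315 from limma). It met the filter only through the oEV-EMT libraries, so it could enter these counts only as higher. *Foxa2*, also chosen after its values were seen, is on the target list and the primitive endoderm marker list. Its log2 difference was 0.01 (adjusted p = 0.985 from limma). The summed FPKM of the 10 primitive endoderm markers overlapped between the groups, at 149 to 290 in oEV-EMT against 195 to 257 in oEV-ctrl. As blastocysts were pooled, more cells of a type and more RNA per cell cannot be told apart.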

How the data were processed

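RNA of 6 pools of 10 blastocysts, 3 per group, was selected with oligo (dT) beads and sequenced in pairs of reads. Per the labels, the authors used StringTie and mm10, and they deposited 1 value per gene and library for 55774 entries, 55487 with an Ensembl identifier. The methods speak of TPM, but library sums (1293175 to 1551567) differ and are above what TPM allow, so the deposited values were taken as FPKM. The aligner and all versions are not given in the sources used here. Depth is unknown.

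Genes with at least 1 FPKM in at least 3 libraries were fitted as log2(FPKM + 1) with limma 3.58.1 in R 4.3.3, with trended and robust variance and Benjamini-Hochberg adjustment over 11924 genes. The pseudocount of 1 understates changes of low genes. Within-library ratios of 5 pairs were compared by two-sided exact permutation. Names and positions came from GENCODE M21 on GRCm38, of which mm10 is the same build, and 55141 identifiers matched. Stretches of 50 bases were searched in its transcripts on both strands. The genes named were the 10 members, related genes that share a role or family with one, and any listed gene past both thresholds; others are said to be chosen after their values were seen. One related gene is not reported here. The members and lists were chosen with earlier results of these data known. The authors' fold changes, RT-PCR and imaging were not used here. Plots used matplotlib 3.10.9 (Python 3.11.15).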

Additional observations from a re-analysis of the deposited data

How the results depend on the processing

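Under the 16 alternatives, which cover scaling, filter, pseudocount, variance model, library weights, a replicate block and each library left out, 0 of the Polycomb members, of the related genes and of the target genes passed both thresholds. Over all genes 0 did in the deposited values, against 21 with the replicate block, 104 with library weights (chosen after seeing the data, as was scaling to the sum of the Ensembl entries), and 0 to 16 with each library left out. Deviations of same-numbered libraries from their group means correlated at 0.12, -0.04 and 0.04 over the tested genes. The labels do not say whether the replicate numbers pair the libraries, and a pairing limited to some genes was not tested. The block changed no call among the members. *Ezh2*, *Jarid2* and *Bmi1* stayed negative and *Eed* positive in every alternative, with adjusted p-values down to 0.128. For *Suz12* the log2 fold change was -0.18 with median-of-ratios scaling, -0.24 with upper quartile scaling and -1.20 with library weights, and it ran from -0.87 to 0.79 with each library left out. For *Mtf2* it was -0.09 and -0.16 with those scalings, and from -0.01 to 0.20 with each library left out. For *Rnf2* it was -0.06 and -0.13 with those scalings, -0.09 with library weights, and from -0.06 to 0.33 with each library left out. With each library left out it ran from -0.28 to 0.06 for *Ezh1* and from -0.41 to 0.15 for *Pcgf6*. The group difference of the within-library log2 ratio then ran from -0.26 to 0.19 for *Ezh2* to *Ezh1*, -0.48 to 0.57 for *Rnf2* to *Ring1*, -1.37 to -0.52 for *Jarid2* to *Mtf2*, -0.63 to 0.05 for *Bmi1* to *Pcgf6* and -0.57 to 1.19 for *Eed* to *Suz12*. The cause of these turns was not tested. Unknown read depth limits *Ring1* and the other genes under 1 FPKM.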
